A study of Mus musculus with 6 samples.

Results

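Adrenomedullin (Adm) and 4 genes of its receptor system, Calcrl, Ramp1, Ramp2 and Ramp3, were followed in C3H10T1/2 cells given the glucocorticoid dexamethasone. C3H10T1/2 is a mouse embryonic mesenchymal line with fibroblast-like growth that can be turned towards fat, muscle, bone or cartilage. The members were all probes whose only gene symbol in the platform annotation was 1 of these 5. They came to 6 of 38467 probes and 5 of 19640 gene symbols: 2 probes for Ramp1 and 1 for each of the others. Of the 6 cultures, 3 had 1 µM dexamethasone for 90 minutes, 3 had the solvent DMSO for the same time (vehicle), and all were grown in DMEM with fetal bovine serum. Each RNA was labelled with Cy3 and hybridised beside a common RNA pool in Cy5, so each value is a log2 ratio of sample and pool. The sources differ on the pool: the channel's label lists myostatin-treated cells beside those given DMSO or dexamethasone, and the series description does not. The set was selected on the dexamethasone minus vehicle difference of Adm and its p, and the other members were chosen by their place in the same receptor system. The differences of the members between the groups are therefore descriptions, given with no p-value.

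Adrenomedullin is a secreted peptide that widens blood vessels and tightens the endothelial barrier, and it is made by many mesenchymal, vascular and tumour cells. Its precursor is cut and then amidated by the enzyme encoded by Pam. The receptor is built from a G protein-coupled receptor, the calcitonin receptor-like receptor encoded by Calcrl, and a receptor activity-modifying protein (RAMP), a single-pass membrane protein that carries it to the surface and sets which ligand it prefers. With the Ramp2 or Ramp3 product the complex responds to adrenomedullin, and with the Ramp1 product to calcitonin gene-related peptide. Both complexes signal mainly through the stimulatory G protein, cyclic AMP and protein kinase A. The glucocorticoid receptor is a hormone-bound transcription factor, and Adm is a textbook target of hypoxia-inducible factors.

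The 250 bases before the RefSeq start (build GRCm38.p6) are shown for Adm and Calcrl, the ligand and receptor genes whose differences lay in opposite directions. Capitals mark matches to GGGCGG or its reverse complement, the GC box bound by Sp1.
Adm promoter: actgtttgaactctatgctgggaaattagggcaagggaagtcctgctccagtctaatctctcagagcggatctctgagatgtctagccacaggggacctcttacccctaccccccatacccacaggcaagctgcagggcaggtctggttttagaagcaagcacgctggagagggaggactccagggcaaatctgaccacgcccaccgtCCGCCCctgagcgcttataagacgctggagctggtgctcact
Calcrl promoter: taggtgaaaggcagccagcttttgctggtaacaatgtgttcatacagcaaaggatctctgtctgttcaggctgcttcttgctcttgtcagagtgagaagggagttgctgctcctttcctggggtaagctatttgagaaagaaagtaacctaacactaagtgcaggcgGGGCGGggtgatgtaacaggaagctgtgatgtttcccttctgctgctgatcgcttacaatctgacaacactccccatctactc
The Adm stretch lies at chr7:110627407-110627656 on the plus strand and the Calcrl stretch at chr2:84425267-84425516 on the minus strand. RefSeq promoters were found for 4 of the 5 members, Ramp2 being the one without an entry. In these 4 windows, searched on both strands, there was no match to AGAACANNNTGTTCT, the palindromic glucocorticoid response element, which 0.00913% of 32851 promoters of the same length held, and none to its arm AGAACA, which 16.1% held. There was also no match to ACGTG, the core of the hypoxia response element (16.6% of promoters), to TGACGTCA, the cyclic AMP response element (1.55%), to its core TGACG (17.8%), which the full element contains, or to TATAAA, a form of the TATA box (12.4%). Only these exact letters were searched for, and other forms of the elements were not. The Adm stretch holds TATAAG near its end, which differs from TATAAA in the last letter. GGGCGG was found once before Adm, starting 42 bases before the start, once before Calcrl, 83 bases before it, and 3 times before Ramp3, and 32.7% of promoters held it. The GC content was 56.8% for the Adm stretch, 48.4% for Calcrl, 54.0% for Ramp1 and 65.2% for Ramp3, against a median of 52.4% over all promoters. A match is a run of letters and not a shown binding site, and a window without one says nothing of sites elsewhere.

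The arrays were of unequal quality, which bears on every value. Array medians were -0.12, 0.57 and 0.41 for dexamethasone replicates 1, 2 and 3, against -0.10, -0.12 and 0.16 for vehicle replicates 1, 2 and 3. The median difference over all 27046 genes and unnamed probes tested was 0.32, so a gene at the centre of the arrays had a positive difference as deposited, and member differences are also given relative to it. Dexamethasone 1 correlated with vehicle 1 (Spearman 0.52 across probes) and not with dexamethasone 2 (-0.23), so that dexamethasone 1, vehicle 1 and vehicle 2 formed 1 set of arrays and dexamethasone 2, dexamethasone 3 and vehicle 3 another. The lowest correlation of 2 arrays was -0.33, between dexamethasone 3 and vehicle 2. The dyes are labelled, but the order of the 2 channels in the ratio is not. Sample over pool is the reading used here and is not settled: read the other way, each gene called higher below would be lower and each lower one higher.

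Adm, the ligand, had the widest separation of the 5 members. Its probe mMC006715 read 0.65, 0.79 and 0.69 on dexamethasone arrays 1, 2 and 3, against -1.84, -1.69 and -1.75 on vehicle arrays 1, 2 and 3. The groups did not overlap, and the lowest dexamethasone value stood 2.34 above the highest vehicle value. The means were 0.71 ± 0.07 with dexamethasone and -1.76 ± 0.08 with vehicle (SD, n = 3 each). The difference was 2.47 ± 0.17 on the log2 scale (moderated SE), a 5.54-fold higher level with dexamethasone, or -2.47 with the sign turned. Relative to the median of all genes it was 2.15. In RNA of whole cultures, more RNA per cell and more expressing cells cannot be told apart.

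The 2 sets of arrays gave Adm nearly the same difference. It was 2.42 in dexamethasone 1 against vehicle 1 and 2, and 2.49 in dexamethasone 2 and 3 against vehicle 3. Over all genes the median differences in these sets were -0.05 and 0.25. With array medians subtracted, Adm read 0.77, 0.22 and 0.29 with dexamethasone, against -1.74, -1.57 and -1.90 with vehicle, and the difference was 2.16 (4.48-fold). Centring widened the spread within the dexamethasone group, and the groups still did not overlap.

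**Figure D1:**
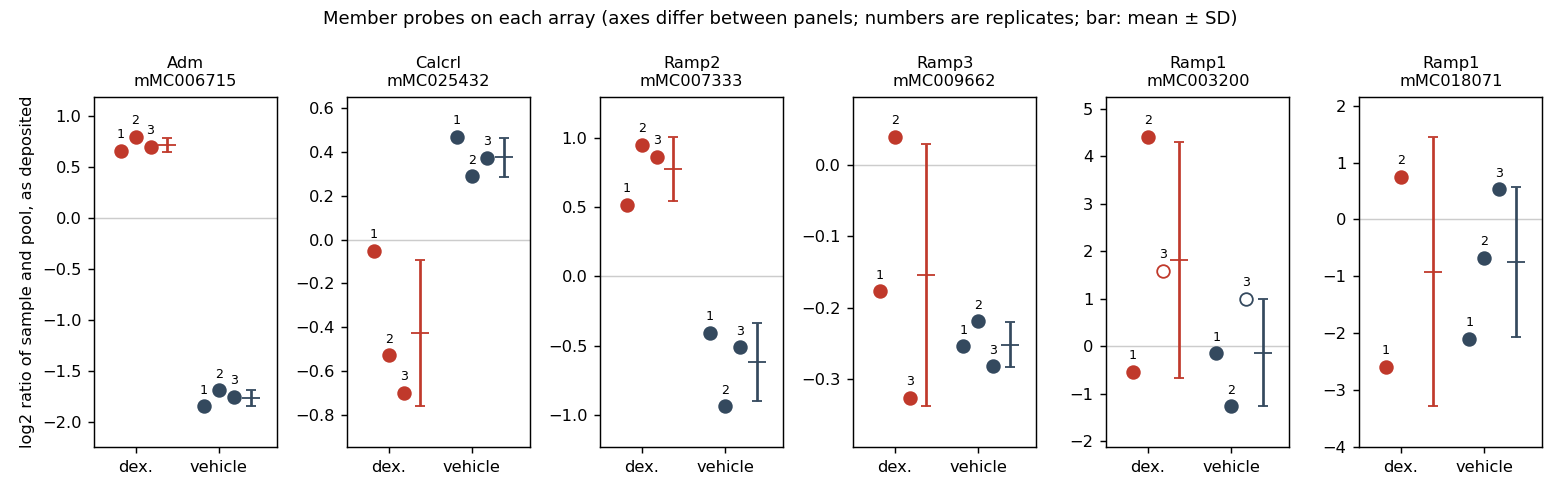
Deposited log2 ratio of sample and pool for each of the 6 member probes, with the 3 dexamethasone arrays left of the 3 vehicle arrays. Numbers are replicates, bars the mean ± SD, open points values equal to a ratio of small whole numbers, and vertical scales differ. Adm, Calcrl and Ramp2 separate the groups, while Ramp3 and both Ramp1 probes overlap.

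Ramp2, which encodes the partner that makes Calcrl an adrenomedullin receptor, was also higher with dexamethasone. Its probe mMC007333 read 0.52, 0.95 and 0.86 on dexamethasone arrays 1, 2 and 3, against -0.41, -0.94 and -0.51 on vehicle arrays 1, 2 and 3. All 3 dexamethasone values lay above all 3 vehicle values, with a gap of 0.93 between the groups. The means were 0.78 ± 0.23 with dexamethasone and -0.62 ± 0.28 with vehicle (SD, n = 3 each). The difference of 1.40 ± 0.24 (moderated SE), 2.64-fold, was 1.08 relative to the median of all genes and -1.40 with the sign turned. It was 1.19 in the set with dexamethasone 1 and 1.42 in the set with dexamethasone 2 and 3. After median centring it was 1.09 (2.13-fold), and the groups still did not overlap.

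Calcrl, the receptor that all RAMPs share, was lower with dexamethasone. Its probe mMC025432 read -0.05, -0.53 and -0.70 on dexamethasone arrays 1, 2 and 3, against 0.47, 0.29 and 0.37 on vehicle arrays 1, 2 and 3. The groups did not overlap, and the gap between them was 0.34. Dexamethasone 1 was the dexamethasone array nearest to vehicle. The means were -0.43 ± 0.33 with dexamethasone and 0.38 ± 0.09 with vehicle (SD, n = 3 each). The difference was -0.80 ± 0.24 (moderated SE), 1.74-fold lower with dexamethasone, -1.12 relative to the median of all genes and 0.80 with the sign turned. Its size depended on the arrays and on their scaling: it was -0.43 in the set with dexamethasone 1, -0.98 in the set with dexamethasone 2 and 3, -1.11 after median centring (2.16-fold) and -1.82 after quantile normalization.

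Ramp3, the other adrenomedullin-preferring partner, lay close to the middle of all genes. Its probe mMC009662 read -0.18, 0.04 and -0.33 on dexamethasone arrays 1, 2 and 3, against -0.25, -0.22 and -0.28 on vehicle arrays 1, 2 and 3. The groups overlapped, the vehicle values falling inside the range of the dexamethasone values. The means were -0.15 ± 0.18 with dexamethasone and -0.25 ± 0.03 with vehicle (SD, n = 3 each), and the difference was 0.10 ± 0.18 (moderated SE). The direction turned with scaling, the difference being -0.21 after median centring, where all but 1 of the dexamethasone values lay below the vehicle values. A difference this small against its error does not show that Ramp3 was unaffected.

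Ramp1, the partner for calcitonin gene-related peptide, could not be read reliably. Probe mMC003200 read -0.54, 4.41 and 1.59 on dexamethasone arrays 1, 2 and 3, against -0.15, -1.26 and 1.00 on vehicle arrays 1, 2 and 3. The values of dexamethasone 3 and vehicle 3 equal log2 ratios of small whole numbers, as very dim spots give. Probe mMC018071 read -2.60 and 0.76 on dexamethasone arrays 1 and 2, with no value on array 3, against -2.10, -0.68 and 0.53 on vehicle arrays 1, 2 and 3. On both probes dexamethasone 1 was the lowest of the dexamethasone arrays and vehicle 3 the highest of the vehicle arrays, and the groups overlapped. The probes differed in sign, with differences of 1.95 for mMC003200 and -0.17 for mMC018071. The probes were averaged array by array, so the value on dexamethasone 3 came from mMC003200 alone. Averaged, Ramp1 had a difference of 1.31 ± 1.24 (moderated SE), which was -0.52 in the set with dexamethasone 1 and 1.32 in the other set. Leaving out dexamethasone 1 or dexamethasone 2 moved it to 2.53 or 0.45, and leaving out vehicle 3 gave 1.91.

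Read together, 2 of the 5 members had all dexamethasone values above all vehicle values (Adm and Ramp2), against 9.95% of the 22880 genes and unnamed probes with 6 values, and 1 had them all below (Calcrl), against 7.29%. After median centring the same members were separated in the same directions, and the shares over all genes were 5.56% and 3.99%. Since the set was chosen with this contrast known, nothing is read from the counts. Ordered by the difference as deposited, Adm came first, then Ramp2, Ramp1, Ramp3 and Calcrl. Ramp1 and its neighbours in that order, Ramp2 and Ramp3, do not differ beyond the error of Ramp1. Of all 27046 genes and unnamed probes, 95.7% had a lower difference than Adm, 83.6% than Ramp2, 81.7% than Ramp1, 37.9% than Ramp3 and 4.8% than Calcrl. With the sign turned the order runs from Calcrl to Adm, and the shares with a lower difference are 4.27% for Adm, 16.4% for Ramp2, 18.3% for Ramp1, 62.1% for Ramp3 and 95.2% for Calcrl.

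**Figure D2:**
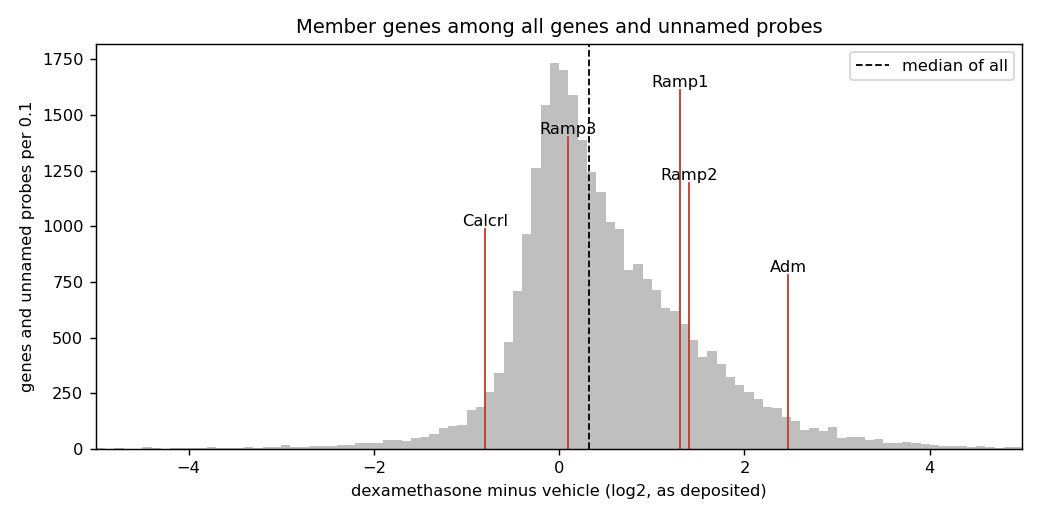
Number of genes and unnamed probes per step of 0.1 in the dexamethasone minus vehicle difference (log2, as deposited), for all 27046, of which 252 lie beyond the drawn range. Vertical lines mark the members: Adm at 2.47, Ramp2 at 1.40, Ramp1 at 1.31, Ramp3 at 0.10 and Calcrl at -0.80, and the dashed line the median of all, 0.32.

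In limma's fit across all genes, 0 of the 5 members passed a Benjamini-Hochberg adjusted p under 0.05, and neither did any other gene (0 of 27046, 0%), while 1468 (5.43%) had an unadjusted p under 0.05. By p, Adm ranked 5 of 27046, the value behind its choice. A low-signal filter dropped a probe if any array lacked its value, gave a size over 10 or matched the log2 of 2 whole numbers up to 10 divided by each other. It kept 17152 genes and unnamed probes and 4 of the 5 members, all but Ramp1. In that fit 29 passed (0.169%), a count that was 934 without dexamethasone 1, 5 without dexamethasone 2 and 0 without any other array. With only probes valued on all 6 arrays, 5 of 22776 passed (0.022%). Adm is 1 of the 29 and 1 of the 5, which repeats the contrast it was selected on and is no test of it. Every leave-one-out fit kept the signs of Adm, Ramp2 and Calcrl.

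**Figure D3:**
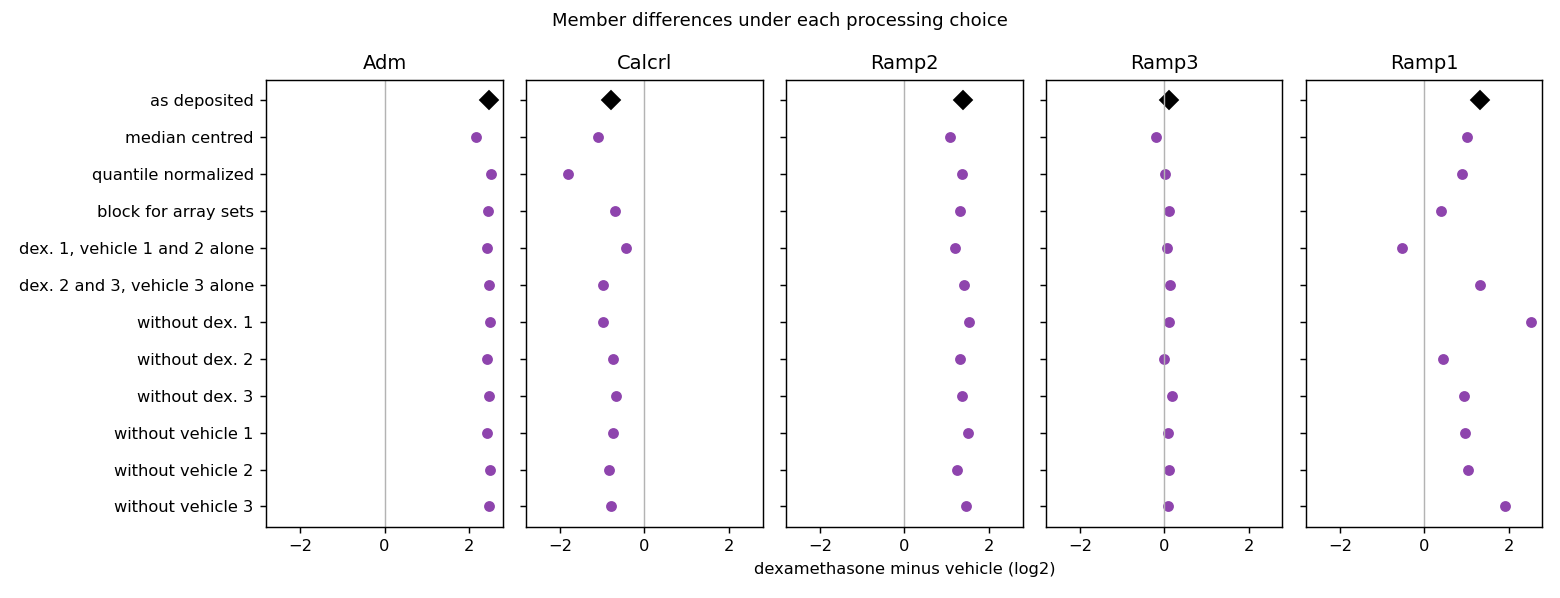
Dexamethasone minus vehicle difference (log2) of each member gene as deposited (diamond) and under other choices of scaling and arrays (points), 1 row per choice. Adm runs from 2.16 to 2.52 and Ramp2 from 1.09 to 1.53, Calcrl stays below 0, Ramp3 lies around 0, and Ramp1 runs from -0.52 to 2.53.

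Among 16510 named genes valued on all 6 arrays, the profile nearest to that of Adm was that of Spsb1, a SOCS-box protein that serves a ubiquitin ligase. Their values differed by a root mean square of 0.16 on the log2 scale over the 6 arrays. Next came Ism1, a secreted protein (0.25), Gclc, the catalytic subunit of the first enzyme of glutathione synthesis (0.25), Fam107a (0.25), and the clock repressor Per1 (0.29). The transcription factor Klf9 (0.31), Tcim (0.31) and Pdp1, a phosphatase that activates pyruvate dehydrogenase (0.32), complete the 8 nearest. The differences of these 8 between dexamethasone and vehicle, as deposited, ran from 1.93 for Klf9 to 2.83 for Tcim. For Ramp2 the nearest were Snai1, a repressor of epithelial genes (0.15), and Zfp36, which promotes decay of AU-rich mRNAs (0.19). For Calcrl they were the repressor Klf3 (0.10) and Rgma, a membrane-anchored co-receptor for bone morphogenetic proteins (0.10). The 2 nearest to Ramp3 were Slc43a3 (0.03) and Mbnl1, a splicing regulator (0.05), and to Ramp1 they were E330023G01Rik (0.20) and Syt1, a calcium sensor of vesicle release (0.24). Likeness here is over 6 arrays that share a pool and 2 treatments, and many genes with a like difference come close by it.

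The nearest protein-coding genes on either side of each member in the RefSeq table were also read, a choice made after the members' values were seen. Of 10 neighbours, 9 were measured, and 3 had all dexamethasone values above all vehicle values, against 9.95% of all genes. After median centring Ampd3 alone did, against 5.56% of all genes. Ampd3, which encodes an AMP deaminase and lies next to Adm, had means of 0.86 ± 0.24 with dexamethasone and -1.01 ± 0.05 with vehicle (SD, n = 3 each). The difference of 1.86 ± 0.20 (SE) did not pass (limma adjusted p = 0.188). After the low-signal filter limma gave an adjusted p of 0.0487, and with only probes valued on all arrays 0.0962. All 3 Ampd3 probes were higher with dexamethasone, by 2.16, 1.72 and 1.71. Sbf2, on the other side of Adm, had a difference of 0.88 ± 0.54 (SE) with probes that disagreed in sign (1.92 and -0.15). The neighbours of Ramp2, the histone methyltransferase gene Ezh1 and the endosomal sorting gene Vps25, had differences of 0.74 ± 0.24 and 0.28 ± 0.18 (SE) with groups that did not overlap as deposited but did after centring, and neither passed (limma adjusted p = 0.732 for both). Of the neighbours of Calcrl, Tfpi, which encodes an inhibitor of coagulation, had a difference of -0.21 ± 0.25 and Zswim2 of 2.21 ± 1.64 (SE).

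Of the other calcitonin family genes, 5 of 6 were measured and 0 passed in either direction. Iapp, which encodes amylin, had a difference of 2.43 ± 1.36 (SE) on 2 dexamethasone values, and it did not pass the low-signal filter. The difference was 0.68 ± 0.60 for Calcr, the calcitonin receptor, and 1.19 ± 1.14 for Calcb, a calcitonin gene-related peptide. For Crcp, a component of the calcitonin gene-related peptide receptor, it was -0.12 ± 0.19 (SE). The median of the 5 was 0.68, against 0.32 for all genes. In each of these genes the dexamethasone and vehicle values overlapped. Of the genes for processing, binding and clearing adrenomedullin, 5 of 6 were measured and 0 passed, with a median of 0.12. Pam, the amidating enzyme, read 0.12, 0.28 and 0.15 with dexamethasone, against 0.08, 0.18 and 0.15 with vehicle, a difference of 0.05 ± 0.17 (SE). Ackr3, a decoy receptor for the peptide, had values on 2 dexamethasone arrays and a difference of 1.21 ± 0.96, the receptor gene Gpr182 1.57 ± 1.07, the peptidase gene Mme -0.35 ± 0.26 and the peptidase gene Ide 0.12 ± 0.20 (SE).

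In the signalling chain below the receptor, from the stimulatory G protein to protein kinase A, phosphodiesterases and receptor kinases, 0 of 38 genes measured of 41 listed passed in either direction. Their median was 0.29, next to the 0.32 of all genes. Of 37 with 6 values, 4 were higher and 8 lower without overlap, beside 9.95% and 7.29% of all genes. After median centring 1 was higher and 2 were lower, beside 5.56% and 3.99%. By p, Prkar1b, a regulatory subunit of protein kinase A, came first with a difference of 1.43 ± 0.25 (SE), on 2 vehicle values. It was followed by the phosphodiesterase gene Pde8a (-0.76 ± 0.25), the receptor kinase gene Grk3 (3.22 ± 1.37) and the CREB coactivator gene Crtc2 (0.39 ± 0.17, SE). Neither Prkar1b nor Grk3 passed the low-signal filter.

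Genes that cyclic AMP is known to induce had a median of 0.68 over the 14 measured of 15 listed, and 0 passed in either direction. Rgs2, which limits G protein signalling, read 1.05, 1.11 and 1.12 with dexamethasone, against -1.43, -1.69 and -1.72 with vehicle, a difference of 2.71 ± 0.18 (SE). Rgs2 was the 1 gene of all these lists to pass after the low-signal filter (limma adjusted p = 0.0164, and 0.118 in the fit without it). The lists and the filter were chosen with earlier results of these data known, so this is no independent test of Rgs2. With the filter and median centring, or the filter and a block for the 2 sets of arrays, 0 genes passed. The nuclear receptor gene Nr4a1 (1.89 ± 0.29) and the kinase gene Sik1 (1.96 ± 0.39) were also higher without overlap, and Ptgs2, which encodes cyclooxygenase-2, was lower (-1.27 ± 0.18, SE). Of the 13 with 6 values, 3 were higher and 2 lower without overlap as deposited. After median centring Rgs2, Nr4a1 and Sik1 were still higher and Ptgs2 lower, while Nr4a2, the other lower gene as deposited, overlapped and Bdnf was lower. Nr4a2 and Bdnf are named here with their values already known. Of all genes, 9.95% were higher and 7.29% lower without overlap as deposited, and 5.56% and 3.99% after median centring. Several genes of this list are known as glucocorticoid targets as well, so the list is not one of cyclic AMP alone. The cause of their differences was not tested.

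Hypoxia factors and their targets, the group in which Adm is usually listed, had a median of 0.12 over the 26 measured of 28, and 0 passed in either direction. Ddit4, an inhibitor of mTOR signalling, had a difference of 1.52 ± 0.21, and the glycolytic regulator Pfkfb3 of 0.93 ± 0.16 (SE). Pdk1, which inhibits pyruvate dehydrogenase, was at -0.89 ± 0.33 and Vhl, which marks the factors for destruction, at -0.51 ± 0.20 (SE). These 4 came first by p, and their groups did not overlap. Of the 26, 7 were higher and 3 lower without overlap, beside 9.95% and 7.29% of all genes, and 3 and 3 after median centring, beside 5.56% and 3.99%. Of the other vasoactive peptides and receptors, 30 of 34 were measured, with a median of 0.61 that was 0.28 over the 19 left by the low-signal filter, and 0 passed in either direction. By p, the first were Adcyap1r1, the receptor of the peptide PACAP (0.97 ± 0.29), Ace, the angiotensin-converting enzyme (0.97 ± 0.36), and the endothelin genes Edn2 (2.53 ± 1.19) and Edn3 (-0.36 ± 0.19, SE).

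Over the 6 lists together, 108 different genes had 6 values. Of these, 15.7% were higher and 14.8% lower without overlap, against 9.95% and 7.29% of all genes. After median centring 8.33% were higher and 8.33% lower, against 5.56% and 3.99% of all genes. In limma 13 of the 115 measured (11.3%) had an unadjusted p under 0.05, against 5.43% of all genes. The lists were chosen with earlier results known, and no test was made of them.

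**Figure D4:**
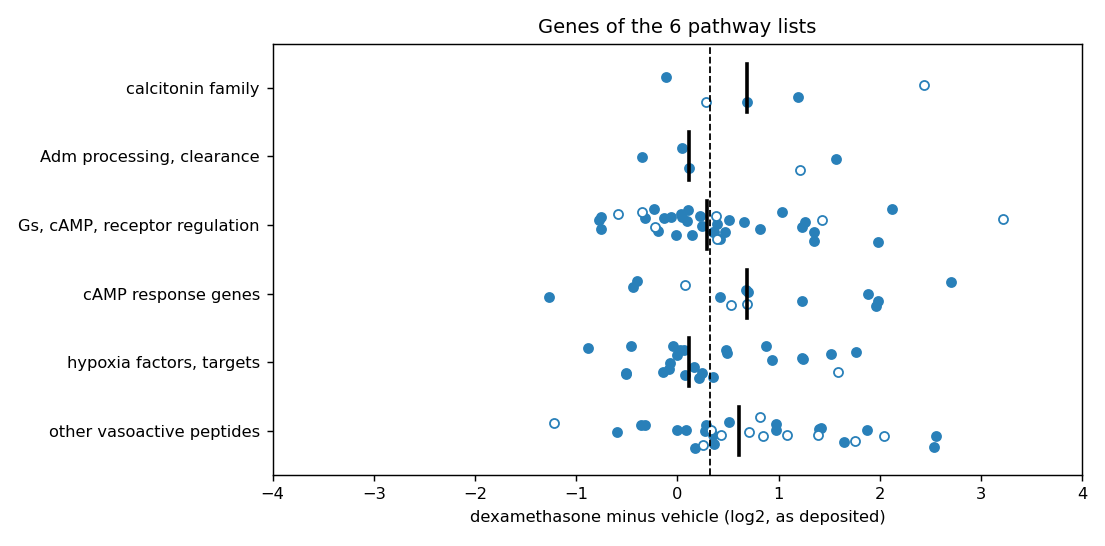
Dexamethasone minus vehicle difference (log2, as deposited) of each measured gene in the 6 lists, 1 row per list, with the list's median as a bar and the median of all genes (0.32) as a dashed line. Filled points passed the low-signal filter and open points did not, and 1 gene beyond the range is not drawn. Every list has genes on both sides of that median, and Rgs2 stands highest among the cyclic AMP response genes at 2.71.

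Calcrl and Ramp2 are typically high in endothelium, so markers of other cells were read beside them. Ratios to a pool carry no level between genes, so neither a summed marker level nor the identity of the line could be had from them. Of 8 blood endothelial markers measured, 0 passed in either direction, and the median difference was 1.01. Of all genes, 9.95% were higher and 7.29% lower without overlap as deposited, and 5.56% and 3.99% after median centring. Of the 6 endothelial markers with 6 values, Esam (3.39 ± 0.79) and Pecam1 (1.56 ± 0.71, SE) were higher without overlap in both scalings, and 0 were lower. Neither passed the low-signal filter, which goes by the deposited values and not by spot intensity. The 3 of the 8 that passed it had a median of -0.06 in the filtered fit. The median was 0.95 for 5 blood cell markers, 1.08 for 5 epithelial, 0.04 for 4 lymphatic, 0.05 for 5 smooth muscle and -0.17 for 9 mesenchymal markers, and 0 passed in any of these lists. The low-signal filter left 1 blood cell marker, at -0.43, and 3 epithelial markers, with a median of 1.25. The part of the markers in the member values was not tested.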

How the data were processed

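The arrays of 6 cultures, each with 2 colours, were read from the deposited series table, which holds the authors' log2 ratios (judged from the values: signed, 3 decimals, many equal to log2 ratios of small whole numbers). On 4 arrays the deposited column also holds values beyond 100 in size, 2 to 27 per array, so these columns are scores that are not log2 throughout. The submitters' processing notes name limma; how background, normalization and spots were handled is not given in the sources used here. The number of arrays limits the precision.

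Single-symbol probes were averaged by gene with avereps, at least 2 values per group were required, and limma 3.58.1 in R 4.3.3 (lmFit, eBayes) was fitted without further normalization, two-sided, with Benjamini-Hochberg adjustment over all at 0.05. The fit was tested on simulated data in which arrays varied independently, so the test does not cover the 2 sets of arrays seen here. SE is moderated, SD is over arrays, and no exact permutation test was run, since 3 against 3 arrays cannot go below 0.1. The Entrez identifiers changed 0 symbols. The members and lists were chosen with earlier results of these data known, and the low-signal filter came from an earlier look at them. Named genes are all members, the 8 profiles nearest to Adm and 2 nearest to each other member, and up to 4 genes per list by p; neighbours and other genes were named after values were seen. Replicate numbers were not used to pair the arrays in the main fit. Deviations of same-numbered arrays correlated at 0.28, -0.17 and 0.35. Differently numbered arrays of the same set did so too, at 0.33 for dexamethasone 1 with vehicle 2 and 0.28 for dexamethasone 2 with vehicle 3. The sets of arrays are thus mixed with the numbers, and these values cannot tell whether the numbers pair the arrays.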

Additional observations from a re-analysis of the deposited data

How the results depend on the processing

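Median centring gave differences of 2.16 for Adm, 1.09 for Ramp2, -1.11 for Calcrl and -0.21 for Ramp3, of which Ramp3 turned its sign; the first 3 kept theirs. Quantile normalization gave -1.82 for Calcrl. With dexamethasone 1, vehicle 1 and vehicle 2 alone Calcrl was at -0.43 and Ramp1 at -0.52, and probe mMC018071 alone gave -0.17 for Ramp1. With the sign turned the differences were -2.47, -1.40, -1.31, -0.10 and 0.80 for Adm, Ramp2, Ramp1, Ramp3 and Calcrl. Leaving out 1 array gave 2.43 to 2.51 for Adm, 1.24 to 1.53 for Ramp2, -0.99 to -0.67 for Calcrl, 0.0002 to 0.18 for Ramp3 and 0.45 to 2.53 for Ramp1. The count of calls over all genes was 0 in the planned fit, 29 after the low-signal filter and 5 with probes valued on all arrays. Among the genes of the 6 lists it was 0, then 1 and 1 in these fits, and 0 without any 1 array. Without 1 array the count over all genes was 0 throughout in the planned fit, and after the low-signal filter it ran from 0 to 934, with 934 without dexamethasone replicate 1 and 5 without dexamethasone replicate 2; these combined settings were added after seeing the data. After the filter it was 0 with median centring, with the sets of arrays as a block and with the replicate block. The replicate block left the differences as they were (2.47 for Adm) and gave 0 calls. The genes of the 6 lists without overlap numbered 33 as deposited, 18 after median centring and 19 after quantile normalization, and 36 to 65 without 1 array, which has fewer values to separate, with 65 without dexamethasone replicate 1. Other causes were not tested. Likeness to Adm cannot depend on median centring, which takes the same amount from every gene of an array.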
